A study of Caenorhabditis elegans with 16 samples.

Results

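The interaction of light and retinal asks, for each gene, whether all-trans retinal (ATR) changed the transcript by a different amount under blue light than in the dark. It was computed on the log2 scale as the difference between light plus ATR and light minus ATR, less the difference between dark plus ATR and dark minus ATR. All 16 libraries of the series enter it, 4 in each of the 4 conditions, so none was left out. Every library came from young adult whole worms of 1 transgenic strain, which carries myo-3p::ChR2(C128S;H134R), and the controls carry this transgene too. Worms of the plus ATR groups were raised from the L1 stage on bacteria with 0.1 mM ATR, and those of the minus ATR groups on bacteria without it, all at 18 °C. The light groups were given 5 s pulses of 455 nm light, each followed by 20 min of darkness, over 8 h, while the dark groups received no pulses. The myo-3 promoter limits the channel to muscle, whereas the RNA is that of the whole animal. Worms that ruptured during the treatment had been washed away before RNA was taken. The authors describe this rupture for worms given ATR and light pulses together, so the removal coincides with light plus ATR. Its part in the interaction cannot be told apart and was not tested.

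ChR2 is a light-gated cation channel that needs retinal as its chromophore, and C. elegans has to take this retinal up with its food. In muscle, the open channel depolarises the membrane and the cell contracts, so that contraction needs light and retinal together. Retinal is also a lipophilic compound that binding proteins and oxidising enzymes handle, and short-wavelength light by itself is sensed by worms through photoreceptors such as LITE-1. Effects of light alone and of retinal alone that simply add up on the log2 scale cancel in the interaction, which keeps only what the combination adds or removes.

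The libraries held between 19264325 and 32374032 gene counts, and between 0.721% and 0.953% of all counts lay on the ERCC spike-in RNAs. Lists of markers of body wall muscle, intestine, neurons, hypodermis, pharyngeal muscle, germline and sperm had counts in every library. All 4 light plus ATR libraries had a library of their own group as nearest neighbour, against 3 of the 12 others. In such bulk RNA, fewer cells of a type and less RNA per cell cannot be told apart. The replicates are described as independent biological ones, and no batch is named for them.

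Of 15044 genes tested, 787 (5.23%) passed the test for an interaction, with a Benjamini-Hochberg adjusted p under 0.05 in edgeR's quasi-likelihood test. The retinal effect was higher under light than in the dark for 388 genes (2.58%) and lower for 399 (2.65%), and these are called higher and lower below. The 2 retinal effects that make up the contrast were very unequal, since ATR changed 2450 genes (16.3%) under light, 1262 higher (8.39%) and 1188 lower (7.90%), and 10 genes (0.0665%) in the dark, 5 higher (0.0332%) and 5 lower (0.0332%). Light changed 4169 genes (27.7%) in worms given ATR, 2431 higher (16.2%) and 1738 lower (11.6%), and 0 in worms without it, where 2012 genes had an unadjusted p under 0.05, DESeq2 called 117 higher and 63 lower, and limma 2 higher and 0 lower. Averaged over the other factor, light raised 2227 genes (14.8%) and lowered 1488 (9.89%), and ATR raised 934 (6.21%) and lowered 813 (5.40%), 24.7% and 11.6% in all, and these averages are not described further. Scaling decides how the calls split: scaling by library totals gave 589 higher and 284 lower, and scaling by the ERCC counts gave 124 higher and 296 lower, as it moved the median of all genes from 0.01 to -0.10. Library totals moved that median to 0.07. Values below are relative to the bulk of the transcriptome. The gene lists were chosen with earlier results of these data known, so their shares of calls describe the lists and do not test them.

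The interactions were mostly modest. The median size was 0.60 on the log2 scale among the higher genes and 0.51 among the lower ones, and 66 higher and 70 lower genes reached at least 1. Sizes of at least 2 were found for 16 higher and 12 lower genes. In 764 of the 787 genes (97.1%, against 58.0% of all genes tested), light plus ATR was the condition whose removal left the other 3 group means closest together. The 4 light plus ATR libraries lay wholly outside the range of the 12 others in 691 of the 787 genes (87.8%, against 13.6% of all genes tested), 336 times above and 355 times below (7.35% and 6.29% of all genes). None of these shares is a test of its own, because they use the same libraries as the interaction.

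**Figure D1:**
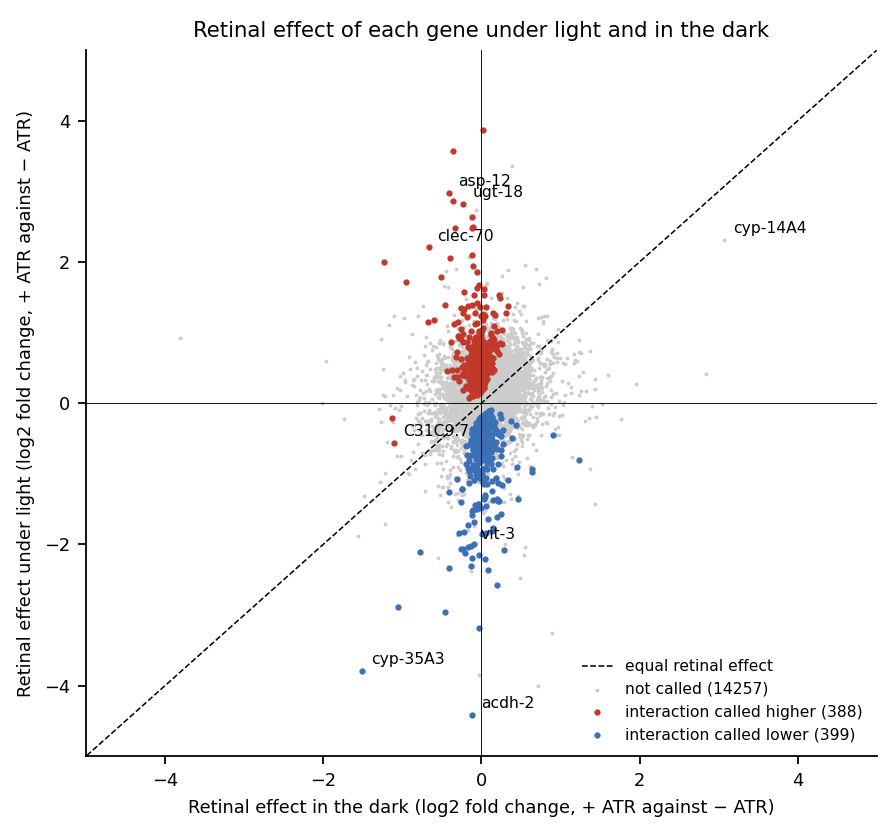
Retinal effect of each gene in the dark (horizontal axis) and under light (vertical axis), both as log2 fold changes of plus ATR against minus ATR, with genes called higher in red, called lower in blue and the rest in grey. Called genes spread along the vertical axis near a dark effect of 0, away from the dashed line of equal effects. Of the genes tested, 17 lie beyond the axis limit of 5, and 0 of these were called.

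An ATR effect under light does not by itself show an interaction. Among the 2450 genes that ATR changed under light, 768 (31.3%) also had a called interaction, 767 of them with the same sign, and 1682 had none. In these 1682 genes the retinal effect under light was small, with a median size of 0.31 on the log2 scale. Their interaction pointed the same way in 1672, with a median of 0.24 in that direction, and 925 had an unadjusted p under 0.05. These genes were chosen by the retinal effect under light, which is part of the interaction. The shared direction and the small p-values are therefore in part set by that choice. The interaction is also less precisely measured, as its median standard error over all genes was 0.14, against 0.10 for the retinal effect under light. A gene without a call is therefore not shown to respond equally in light and dark.

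Most of the yolk protein genes were called lower. Vitellogenins are made in the adult intestine and carried to the oocytes. Of the 6 genes, all tested, 4 were called lower and 0 higher (66.7% called), with a median interaction of -1.07 on the log2 scale against 0.01 over all genes. The vit-3 transcript measured 2939.5, 3000.0, 3536 and 3123 CPM (the count as a share of the scaled library total, times 1e6) in dark minus ATR. It measured 2773, 2806, 3026 and 2940.2 CPM in dark plus ATR, and 2407, 2764, 2823 and 2771 CPM in light minus ATR. In light plus ATR it measured 690.4, 614, 736 and 615 CPM, so that the highest of these libraries was below the lowest control. The interaction of vit-3 was -1.89 ± 0.10 (SE, adjusted p = 1.05e-10), a 3.71-fold lower retinal response, and ATR moved it by -2.02 under light and by -0.13 in the dark.

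Its near-identical neighbour vit-4, which may share reads with vit-3 and vit-5, fell as much, with an interaction of -1.90 ± 0.10 (adjusted p = 1.30e-10), and measured 661 to 841 CPM in light plus ATR and 2666 to 3849.9 CPM in the 12 other libraries. The separate gene vit-1 fell by less, with an interaction of -1.36 ± 0.10 (adjusted p = 5.27e-09) and levels of 449 to 549 CPM against 1197 to 1701 CPM. The call held for vit-5 at -0.78 ± 0.10 (adjusted p = 2.77e-05). Neither of the remaining genes passed, with vit-2 at -0.28 ± 0.13 (adjusted p = 0.300) and vit-6 at -0.36 ± 0.13 (adjusted p = 0.143, or 0.0476 without dark minus ATR replicate 3). Together the 6 genes made up 2.79% to 3.37% of the scaled total in light plus ATR and 4.05% to 5.86% in the other libraries. All 4 calls held under scaling by library totals and by ERCC counts.

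**Figure D2:**
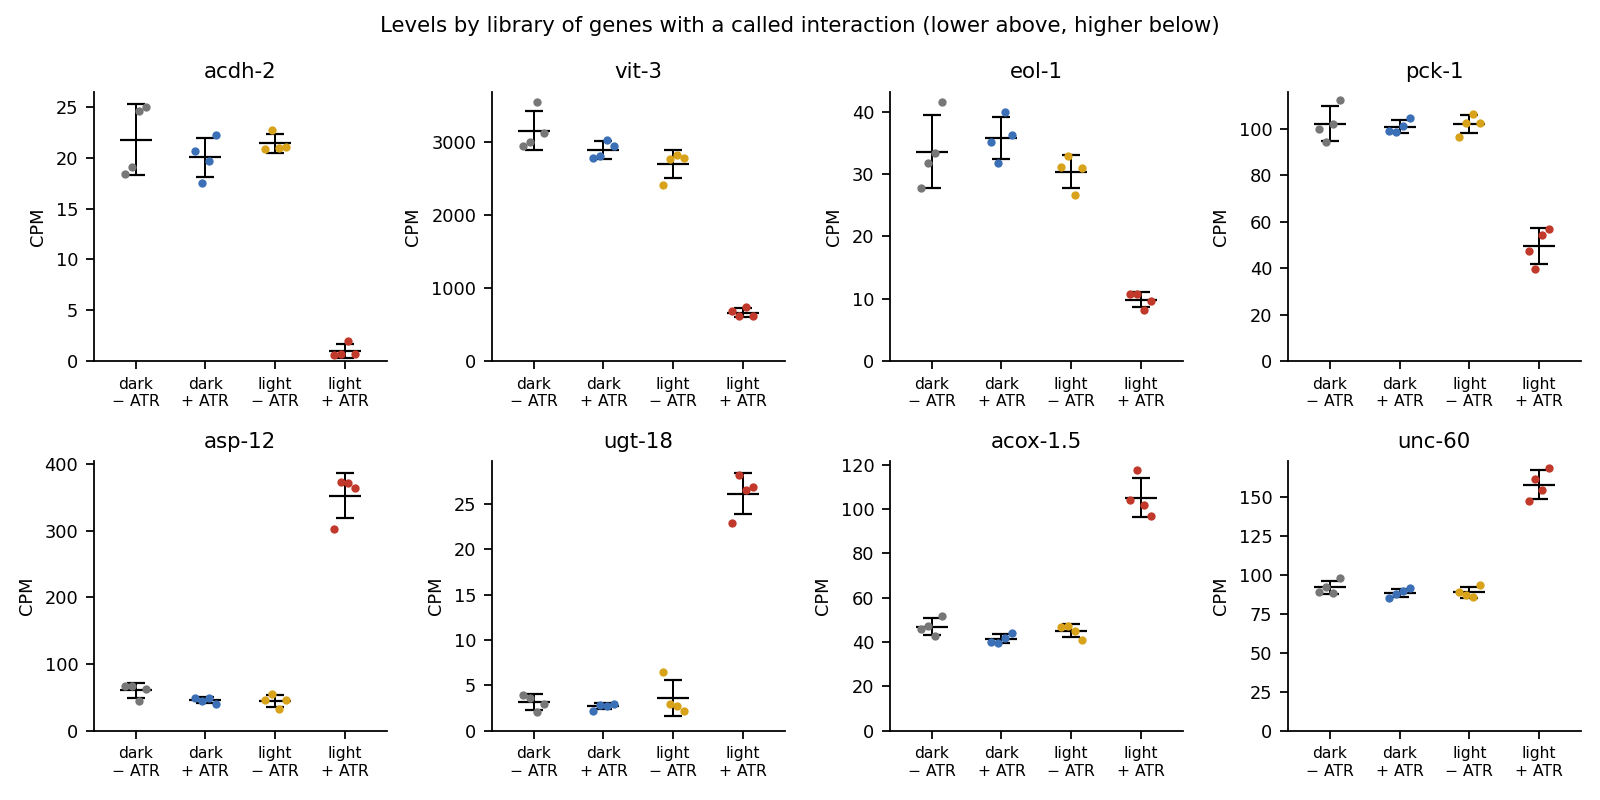
Levels in CPM (vertical axes, starting at 0) of 8 genes in the 4 conditions. Points are libraries, and bars are the mean and SD of 4 libraries. In each gene the 3 control conditions lie close together and all 4 light plus ATR libraries lie outside them, below for acdh-2, vit-3, eol-1 and pck-1 and above for asp-12, ugt-18, acox-1.5 and unc-60.

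Lysosomal proteases moved the other way. Of 22 proteases tested (29 listed), which degrade proteins in lysosomes and in the gut, 12 were called higher and 4 lower (72.7% called, against 5.23% of all genes), with a median of 0.53. The largest rise of the list belonged to asp-12, an aspartic protease of the cathepsin D family. Its levels were 67.0, 67.6, 44.4 and 63.3 CPM in dark minus ATR and 49.4, 44.2, 48.8 and 40.8 CPM in dark plus ATR. They were 46.5, 54.3, 33.1 and 45.5 CPM in light minus ATR and 302, 373, 371 and 364 CPM in light plus ATR, more than any control library by a wide margin. The interaction was 3.38 ± 0.22 (adjusted p = 4.74e-07), a 10.4-fold higher retinal response under light.

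Abundant members rose by less. The intestinal aspartic protease gene asp-1 measured 3442 to 3585 CPM in light plus ATR against 2186 to 2548 CPM elsewhere, an interaction of 0.74 ± 0.06 (adjusted p = 8.45e-08). For cpr-4, a cathepsin B-like cysteine protease, the levels were 967, 1088, 972 and 954 CPM in light plus ATR and 393 to 503 CPM in the 12 controls, and the interaction was 1.16 ± 0.11 (adjusted p = 9.95e-07). The cathepsin D homologue asp-3 (0.81) and the gut cysteine protease gene cpr-1 (0.84) rose too, as did asp-2, asp-5 and asp-6, by 0.35, 0.57 and 0.62. The 4 members that fell were the cathepsin Z gene cpz-1 (-0.57, adjusted p = 1.18e-04), the cathepsin B-like gene cpr-6 (-0.29) and the aspartic protease genes asp-8 (-0.78) and asp-13 (-0.42). Summed over the list, light plus ATR had 15199 to 16069 CPM and the other libraries 11336 to 13608 CPM. Under ERCC scaling 9 were called higher and 3 lower. Markers of the intestine, where several of these proteases are made, moved beside them. Of 25 intestinal markers tested, 4 of them also on the protease list, 6 were called higher and 2 lower (32.0% called, median 0.10, or -0.02 under ERCC scaling), and their sum was 8688 to 9107 CPM in light plus ATR and 7268 to 8375 CPM in the controls. Without the 4 shared genes, 4 were called higher and 1 lower, and the sums overlapped, at 2426 to 2607 CPM and 2248 to 2479 CPM. The sodium-proton exchanger gene nhx-2 was higher (0.65 ± 0.08, adjusted p = 1.49e-05) and the gut esterase gene ges-1 lower (-0.37 ± 0.07, adjusted p = 0.00215). The intestinal GATA factor gene elt-2 stood at 0.33 ± 0.10 (adjusted p = 0.0593), called by DESeq2, with library totals, with the strict filter and without dark minus ATR replicate 3, light minus ATR replicate 3 or light plus ATR replicate 1. Their part in the protease and defence results was not tested.

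Genes of intestinal defence partly followed. Among 46 innate immunity effectors of the intestine tested, 12 were called higher and 2 lower (30.4% called), with a median of 0.07. The lower count was 4 without dark plus ATR replicate 1 or light plus ATR replicate 4. Lysozymes, which split bacterial cell walls, had 4 higher and 0 lower calls among 12 tested (33.3% called, median 0.32). The lysozyme gene lys-4 measured 329, 336, 381 and 383 CPM in light plus ATR, and 206 to 241 CPM in the controls, which it did not overlap. Its interaction was 0.77 ± 0.08 (adjusted p = 7.97e-07). The saposin-like gene spp-2 (1.20 ± 0.13, adjusted p = 5.66e-06) and the acid ceramidase gene asah-1 (0.78 ± 0.08, adjusted p = 3.57e-07) were also higher. C-type lectins, secreted sugar-binding proteins, were divided, with 7 higher and 6 lower calls among 116 tested (11.2% called, against 5.23% of all genes, median 0.04).

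A pair of lectin genes was among the largest rises. The clec-70 transcript was rare, at 1.67, 2.15, 2.30 and 3.48 CPM in dark minus ATR, 1.32, 1.38, 2.03 and 1.37 CPM in dark plus ATR and 2.33, 1.83, 1.20 and 1.43 CPM in light minus ATR. It reached 6.39, 9.45, 8.09 and 7.97 CPM in light plus ATR, for an interaction of 2.87 ± 0.31 (adjusted p = 3.57e-06). The other, clec-53, had an interaction of 1.69 ± 0.18 (adjusted p = 1.13e-06), and clec-41 had one of -0.57 ± 0.07 in the other direction (adjusted p = 6.53e-06). With ERCC scaling the higher calls dropped from 12 to 5 among the immunity effectors, from 4 to 2 among the lysozymes and from 7 to 3 among the lectins, and the medians of the first and last of these lists turned negative (-0.03 and -0.06).

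Enzymes of lipid breakdown held the largest fall of all called genes. The acdh-2 transcript, predicted to encode an acyl-CoA dehydrogenase of fatty acid oxidation, measured 18.4, 19.1, 24.6 and 25.0 CPM in dark minus ATR and 20.7, 17.5, 19.7 and 22.2 CPM in dark plus ATR. It measured 20.9, 22.7, 20.9 and 21.1 CPM in light minus ATR and fell to 0.574, 0.671, 2.00 and 0.721 CPM in light plus ATR. Its interaction was -4.29 ± 0.31 (adjusted p = 5.39e-07), a 19.6-fold lower response, and the annotated gene overlaps ins-13. Among the 45 genes of fatty acid oxidation tested, 8 were called lower and 5 higher (28.9% called, median -0.04, or 0.02 with library totals). The lower ones included acdh-9 (-0.62 ± 0.08, adjusted p = 9.03e-06) and the acyl-CoA synthetase gene acs-1 (-0.58 ± 0.06, adjusted p = 6.01e-07).

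The higher calls of the list included acox-1.5, ech-9 and cpt-4. The acyl-CoA oxidase gene acox-1.5, whose family catalyses the entry step of peroxisomal oxidation, measured 45.7, 47.3, 42.6 and 51.9 CPM in dark minus ATR and 40.2, 39.7, 41.8 and 44.2 CPM in dark plus ATR. The values were 46.7, 47.4, 44.9 and 40.9 CPM in light minus ATR and 104, 118, 102 and 96.9 CPM in light plus ATR, with no overlap, and the interaction was 1.40 ± 0.09 (adjusted p = 3.65e-09). For ech-9, of the enoyl-CoA hydratase family, the light plus ATR libraries measured 40.0, 53.7, 53.1 and 55.0 CPM against 7.20 to 15.5 CPM in the controls, an interaction of 2.21 ± 0.30 (adjusted p = 4.26e-04), and this gene overlaps F01G10.11. The carnitine palmitoyltransferase gene cpt-4 rose by 1.30 ± 0.22 (adjusted p = 0.00105). Outside the list, the peroxisomal membrane ABC transporter gene pmp-1 rose by 1.20 ± 0.11 (adjusted p = 1.51e-06), and the lipase-related gene lips-11 was higher at 1.47 ± 0.30 (adjusted p = 0.00436).

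In fatty acid synthesis, desaturation and elongation, 28 genes were tested, of which 7 were called lower and 4 higher (39.3% called, median -0.09). The delta-9 desaturases that make oleic acid were split. The fat-7 transcript measured 53.1, 48.8, 52.8 and 60.7 CPM in light plus ATR and 79.3 to 108 CPM in the controls, an interaction of -0.55 ± 0.10 (adjusted p = 0.00216). Its close relative fat-6 was higher by 0.24 ± 0.06 (adjusted p = 0.0173), while fat-5, which acts on palmitic acid, was lower (-0.61 ± 0.13, adjusted p = 0.00739). Opposite signs were thus called within 1 enzyme class. The delta-12 desaturase gene fat-2 was higher (0.40 ± 0.07, adjusted p = 3.23e-04), and the elongase genes elo-5 and elo-6 of branched-chain fatty acids were lower (-0.38 and -0.36). The short-chain dehydrogenase gene dhs-25, counted in the same list, fell by 1.41 ± 0.11 (adjusted p = 1.62e-07). With ERCC scaling the calls of fat-6 and fat-2 were lost, and 0 members of this list were called higher and 5 lower.

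Glycerolipid and phospholipid synthesis gave 3 higher calls and 1 lower call among 34 genes tested (11.8% called, against 5.23% of all genes, median 0.03, or -0.08 under ERCC scaling). The higher ones were the acyltransferase genes acl-1 (0.57 ± 0.07, adjusted p = 5.45e-06) and acl-12 (0.54) and the ether lipid gene ads-1 (0.64 ± 0.09, adjusted p = 1.15e-04), and the lower one was pmt-2 of phosphocholine synthesis (-0.30, adjusted p = 0.00761). The calls of acl-12 and pmt-2 did not hold under ERCC scaling.

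Among enzymes that modify foreign and lipophilic compounds, the calls of UDP-glucuronosyltransferases and cytochromes P450 were lower with 1 exception, though most members had no call. Of 60 UDP-glucuronosyltransferases tested, which attach sugars to such compounds, 12 were called lower and 1 higher (21.7% called, median -0.26). The ugt-62 transcript measured 87.7, 95.0, 99.7 and 96.7 CPM in dark minus ATR, 102, 93.9, 97.5 and 102 CPM in dark plus ATR and 77.2, 83.9, 82.8 and 74.1 CPM in light minus ATR. In light plus ATR it was at 25.9, 24.0, 32.6 and 33.7 CPM, below every control, and its interaction was -1.51 ± 0.11 (adjusted p = 2.04e-07). The single rise, ugt-18, was large, with 22.9, 28.2, 26.5 and 26.8 CPM in light plus ATR against 2.05 to 6.49 CPM in the controls and an interaction of 3.05 ± 0.40 (adjusted p = 3.16e-04). Members of the list therefore did not move as a block.

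Of 58 cytochrome P450 genes tested, 9 were called lower and 0 higher (15.5% called, median -0.09), and library totals and ERCC scaling also gave 9 lower calls, with 1 higher call under library totals. The cyp-35A2 transcript measured 55.1, 61.7, 62.6 and 58.5 CPM in dark minus ATR and 32.0, 35.4, 32.9 and 38.1 CPM in dark plus ATR, a fall that was itself called (log2 -0.78 ± 0.09, adjusted p = 0.00157). Under light it measured 56.4, 62.7, 62.5 and 53.3 CPM without ATR and 13.6, 10.9, 17.1 and 12.5 CPM with it, a retinal effect of -2.11 ± 0.10 (adjusted p = 3.22e-10). This gene therefore fell with ATR in both settings, and by more under light, with an interaction of -1.33 ± 0.14 (adjusted p = 7.07e-06). Its paralogue cyp-35A3 showed the same order, with a retinal effect of -1.51 ± 0.23 in the dark (adjusted p = 0.00589) and -3.79 ± 0.30 under light. Of the other members, cyp-35C1 (-1.13 ± 0.14, adjusted p = 9.35e-06) and cyp-25A1 (-1.07 ± 0.18, adjusted p = 4.29e-04) fell, with dark effects of -0.26 and -0.003 that were not called. The cyp-35A genes are close copies, and reads may be shared among them. The other enzymes and transporters of such compounds had calls in both directions. Of 42 glutathione S-transferases tested, 3 were called higher and 2 lower (11.9% called, median 0.01), with gst-20 at 0.88 ± 0.08 (adjusted p = 1.74e-07) and gst-10 at -0.76 ± 0.11 (adjusted p = 5.13e-05). Of 38 flavin monooxygenases and transporters, 3 were called higher and 4 lower (18.4% called, median -0.07), among them the ABC transporter genes mrp-5 (0.29 ± 0.06, adjusted p = 0.00216) and pgp-9 (-0.43 ± 0.08, adjusted p = 0.00131). With ERCC counts 1 member of each list was called higher, and the call of mrp-5 was lost. With 1 library left out, the lower calls numbered 1 to 3 in the former list and 2 to 5 in the latter, which had 5 without light plus ATR replicate 4.

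The 10 genes that ATR changed in the dark show how the contrast sorts them. They were chosen by the dark effect, which is subtracted in the interaction. A smaller retinal effect under light than in the dark is therefore in part a product of that choice. All 5 that ATR lowered in the dark had a called interaction, and the 5 that it raised did not. In ugt-22, as in the cyp-35A genes, ATR lowered the transcript, with effects of -0.40 ± 0.07 in the dark (adjusted p = 0.0295) and -1.25 ± 0.07 under light. The reverse order was found for C31C9.7, an uncharacterised gene, which measured 8.39, 6.99, 8.14 and 7.66 CPM in dark minus ATR and 3.63, 3.58, 3.52 and 3.76 CPM in dark plus ATR. Under light it measured 7.27, 6.44, 7.32 and 6.43 CPM without ATR and 4.90, 3.98, 4.97 and 4.71 CPM with it. The retinal effect was -1.10 ± 0.10 in the dark and -0.56 ± 0.10 under light, both called (adjusted p = 3.13e-06 and 2.63e-04), and the interaction was 0.54 ± 0.14 (adjusted p = 0.0206), a call that ERCC scaling ended. A like pattern in Y25C1A.6, with effects of -1.13 ± 0.18 in the dark and -0.21 ± 0.18 under light, rested on an adjusted p of 0.0351 that passed the threshold in 7 of the 16 fits with 1 library left out and not with ERCC counts.

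Genes raised by ATR in the dark had no called interaction. The P450 gene cyp-14A4 rose by 3.07 ± 0.40 in the dark (adjusted p = 0.00157) and by 2.31 ± 0.44 under light (adjusted p = 9.41e-04), and its interaction was -0.75 ± 0.64 (adjusted p = 0.62). The lysosomal lipid chaperone gene lbp-8 measured 0.181, 0.323, 0.0499 and 0.316 CPM in dark minus ATR and 0.793, 1.02, 0.856 and 0.856 CPM in dark plus ATR. Under light its levels were 0.169, 0.198, 0.312 and 0.255 CPM without ATR and 0.306, 0.269, 0.270 and 0.266 CPM with it, and the interaction was -1.69 ± 0.52 (adjusted p = 0.0615), which passed in limma and, in edgeR, without dark minus ATR replicate 2 (adjusted p = 0.0481) or replicate 4 (adjusted p = 0.0409). Levels this low rest on few counts. For the P-glycoprotein gene pgp-1 the interaction was -0.28 ± 0.13 (adjusted p = 0.274). These 3 genes were named after their values had been seen.

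**Figure D3:**
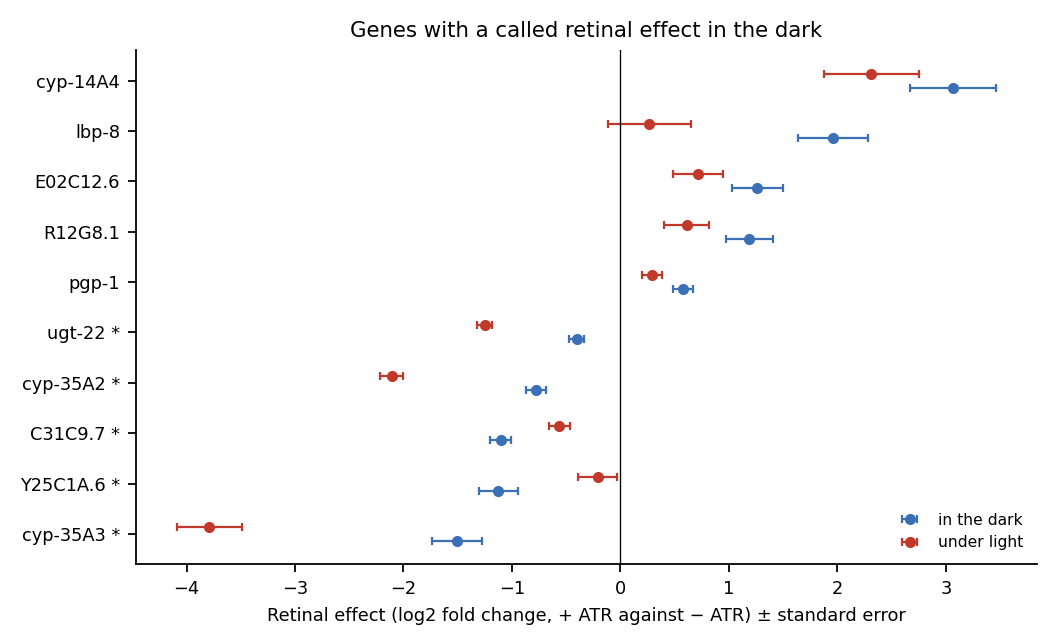
Retinal effect (log2 fold change of plus ATR against minus ATR, with standard error) in the dark in blue and under light in red for the 10 genes with a called retinal effect in the dark. An asterisk marks the 5 genes with a called interaction. The red points of cyp-35A2, cyp-35A3 and ugt-22 lie further from 0 than the blue ones, and those of the other 7 genes lie closer to 0.

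Carriers of retinol and fatty acids had calls in both directions. Of 17 fatty acid and retinol binding proteins tested, 2 were called lower and 1 higher (17.6% called, median -0.07). The secreted binding protein gene far-6 fell by 0.68 ± 0.07 (adjusted p = 3.79e-07), lbp-2 had an interaction of -0.65 ± 0.09 (adjusted p = 3.61e-05), and far-8 was 0.23 higher, a call that ERCC scaling did not keep. Among 9 genes of light and peroxide sensing tested, edgeR called 0, with 0 at an unadjusted p under 0.05 and 0 in DESeq2 or limma. The photoreceptor gene lite-1 had an interaction of 0.27 ± 0.19 (adjusted p = 0.538).

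Among genes of the contractile tissue most calls were higher. Of 55 genes of body wall muscle and the sarcomere, all tested, 16 were called higher and 1 lower (30.9% called), with a median of 0.21, and 47 of the 55 values were positive. The lower call was the alpha-actinin gene atn-1 (-0.25 ± 0.06, adjusted p = 0.0196), which was lost with library totals, with ERCC counts and without dark plus ATR replicate 2, light minus ATR replicate 3 or light plus ATR replicate 2 (adjusted p of 0.0533 to 0.0560 in these 3 fits). The unc-60 transcript, which encodes the actin-depolymerising factors of worm muscle and other cells, measured 89.3, 92.4, 88.4 and 98.0 CPM in dark minus ATR and 85.5, 87.8, 89.9 and 91.3 CPM in dark plus ATR. It measured 89.2, 87.0, 85.6 and 93.7 CPM in light minus ATR and 147, 162, 155 and 169 CPM in light plus ATR, apart from all controls. The interaction was 0.89 ± 0.06 (adjusted p = 5.95e-09), and the gene overlaps F53E2.2. Thin filament genes followed, with the troponin I gene tni-1 at 0.74 ± 0.07 (adjusted p = 3.20e-07) and the calponin-like genes cpn-3 and clik-3 at 0.67 and 0.62.

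The myosin heavy chains behaved unequally. The minor chain gene myo-3, whose promoter drives the transgene, measured 193, 191, 169 and 183 CPM in light plus ATR and 104 to 133 CPM in the controls, an interaction of 0.52 ± 0.09 (adjusted p = 0.00121). For the major chain gene unc-54 the interaction was 0.12 ± 0.10 (adjusted p = 0.613), which did not pass. Further higher calls of the list were the obscurin-like gene unc-89 (0.53 ± 0.09, adjusted p = 5.18e-04), the integrin gene pat-2 (0.41) and unc-98 (0.64). These last 5 genes were chosen after their values had been seen. Summed over the list, light plus ATR held 19427 to 20266 CPM and the controls 16962 to 18787 CPM. Scaling sets the number of calls, which was 25 higher with library totals and 5 higher with ERCC counts, and the calls of myo-3, unc-89 and pat-2 were among those lost with ERCC counts.

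**Figure D4:**
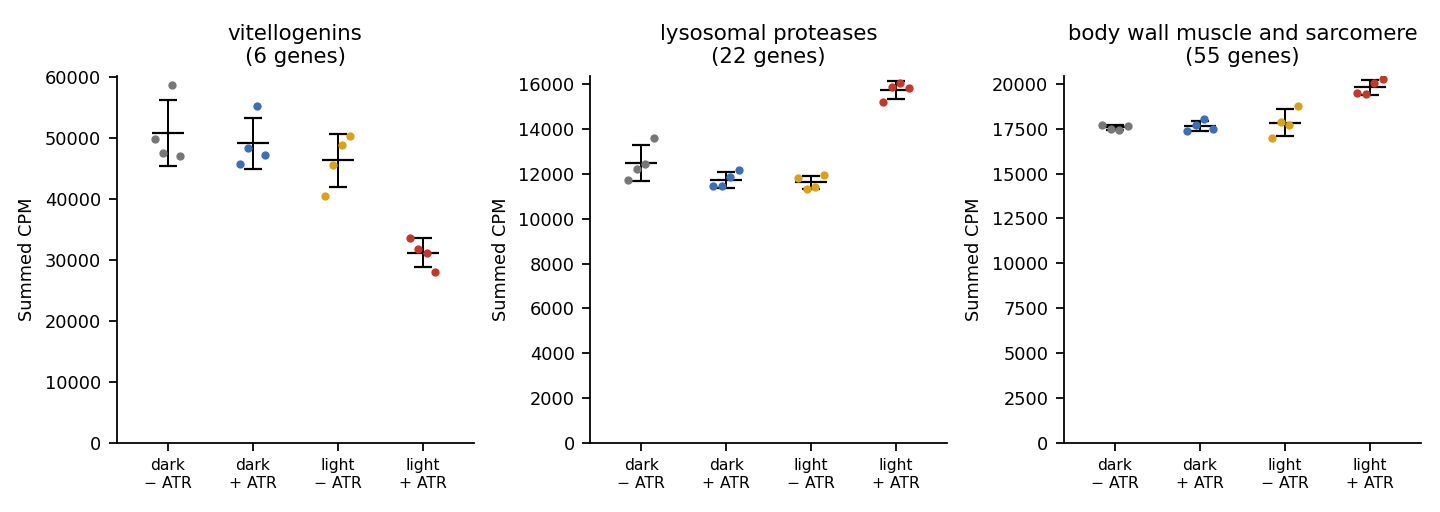
Summed CPM per library (vertical axes, starting at 0) of the vitellogenins, the lysosomal proteases and the body wall muscle genes in the 4 conditions, with the mean and SD of 4 libraries. Light plus ATR lies below all controls for the vitellogenins (27940 to 33652 CPM against 40450 to 58609 CPM) and above them for the other 2 lists.

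Membrane and calcium genes of muscle gave 3 higher calls and 1 lower call among 42 tested (9.52% called, median 0.09). The calcineurin regulator gene rcan-1 was higher by 0.52 ± 0.13 (adjusted p = 0.0155), and the ryanodine receptor gene unc-68, which releases calcium from the sarcoplasmic reticulum, was lower (-0.43 ± 0.08, adjusted p = 0.00174). Calsequestrin, encoded by csq-1, lost its call (0.36 ± 0.09, adjusted p = 0.0216) in 4 of the 16 fits with 1 library left out. A larger rise was seen in cex-1, a calexcitin-like calcium-binding protein gene outside the list, with 70.9, 78.2, 66.8 and 69.8 CPM in light plus ATR and 29.0 to 35.6 CPM in the controls, an interaction of 1.12 ± 0.07 (adjusted p = 2.66e-09). The arginine kinase gene argk-1, of the phosphagen energy buffer, rose from 4.68 to 8.98 CPM in the controls to 18.0 to 24.8 CPM, by 1.30 ± 0.19 (adjusted p = 1.25e-04). With ERCC counts, 0 members of the list were called higher and the median was -0.02.

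The myosin chaperone and ubiquitin network had few calls, though most of its values were negative. Of its 24 genes, 2 were called lower and 0 higher (8.33% called, against 5.23% of all genes, median -0.14). An unadjusted p under 0.05 was found for 13 genes (against 2494 of all 15044), DESeq2 called 4, and 21 values were negative. The summed level of the list was 9736 to 10488 CPM in light plus ATR and 10902 to 12429 CPM in the controls, below all of them. This sum follows the most abundant members, and unc-45 and nhl-1, described next, made up little of it. The myosin chaperone gene unc-45 measured 81.1, 74.0, 74.3 and 77.8 CPM in dark minus ATR, 78.6, 77.3, 79.3 and 72.2 CPM in dark plus ATR, 77.6, 79.9, 76.5 and 79.0 CPM in light minus ATR and 77.7, 75.9, 76.3 and 72.0 CPM in light plus ATR. The 4 groups overlapped, and the interaction was -0.05 ± 0.06 (adjusted p = 0.712), with a sign that library totals reversed. For the ubiquitin ligase gene nhl-1 the levels were 28.7, 26.4, 27.1 and 25.3 CPM, 29.2, 28.0, 30.9 and 28.6 CPM and 27.9, 26.8, 25.7 and 26.7 CPM in dark minus ATR, dark plus ATR and light minus ATR, and 39.9, 37.7, 33.4 and 30.8 CPM in light plus ATR. ATR raised nhl-1 under light by 0.40 ± 0.07 (adjusted p = 1.90e-04) and the interaction was 0.28 ± 0.10 (adjusted p = 0.101, or 0.0396 with library totals and 0.0213 without light plus ATR replicate 4).

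The 2 lower calls of the network were hsp-110, a heat shock protein of the Hsp70 class (-0.32 ± 0.07, adjusted p = 0.00511), and ncl-1, a TRIM-NHL gene of nucleolar size control (-0.30 ± 0.08, adjusted p = 0.0324). For ncl-1, light minus ATR rather than light plus ATR stood apart from the other group means, and light plus ATR overlapped the controls. The call of ncl-1 was lost in 8 of the 16 fits with 1 library left out, and neither call held with ERCC counts. Among the chaperones that missed the threshold, hsp-1 stood at -0.30 ± 0.10 (adjusted p = 0.0781), hsp-90 at -0.24, dnj-13 at -0.20, sti-1 at -0.14 and bag-1 at -0.06. The segregase genes cdc-48.1 and cdc-48.2, with their cofactors ufd-1, npl-4.1 and npl-4.2, had interactions of -0.16, -0.13, -0.03, -0.17 and -0.14. Genes of ubiquitin ligases in the network, chn-1, ufd-2, cul-3 with mel-26, mfb-1, lin-41, nhl-2 and nhl-3, lay between -0.29 and 0.05, and unc-23 and rpt-3 were at -0.18 and -0.11. None of these 20 values passed the test in edgeR with 1 coefficient per condition and all libraries, while DESeq2 called hsp-1 and cdc-48.1. Without 1 library, hsp-1 passed when dark minus ATR replicate 1 was left out (adjusted p = 0.0373), lin-41 when dark minus ATR replicate 3 was (adjusted p = 0.0476) and npl-4.1 when light minus ATR replicate 3 was (adjusted p = 0.0476). Scaling reversed the sign of ufd-1, chn-1 and nhl-3.

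In the 2 lists of neuronal signalling genes, those called were higher. Of 117 neuropeptide and insulin-like peptide genes tested, 15 were called higher and 0 lower (12.8% called, median 0.21). The neuropeptide-like gene nlp-24 was called lower (-0.97 ± 0.25, adjusted p = 0.0412) but was counted with the epidermal antimicrobial peptides. That list had 2 higher calls and 1 lower call among 21 tested (14.3% called). The neuropeptide gene flp-18 measured 34.8, 35.9, 34.3 and 35.4 CPM in light plus ATR, a tight group above the 19.9 to 24.6 CPM of the controls, with an interaction of 0.75 ± 0.08 (adjusted p = 1.61e-06). Other neuropeptide genes with a call were nlp-21 (0.64 ± 0.10, adjusted p = 2.69e-04), nlp-13 (0.58) and nlp-15 (0.54). Among 32 neuronal markers, 4 were called higher and 0 lower (12.5% called, against 5.23% of all genes, median 0.11), and these serve the release of peptides and transmitter. They are the carboxypeptidase gene egl-21 (0.27 ± 0.05, adjusted p = 0.00111) and sbt-1 of peptide processing (0.25), ida-1 of dense core vesicles (0.33) and the priming factor gene unc-13 (0.56 ± 0.11, adjusted p = 0.00343). Library totals gave 23 higher calls among the peptides, and ERCC counts gave 2 there and 0 among the markers.

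Genes of central metabolism were lower where they were called, with 1 exception. Of 29 genes of glycolysis and gluconeogenesis tested, 10 were called lower and 1 higher (37.9% called, median -0.16). The pck-1 transcript, for the enzyme that commits carbon to gluconeogenesis, measured 100.2, 94.5, 102 and 112 CPM in dark minus ATR and 99.2, 98.6, 101 and 105 CPM in dark plus ATR. It measured 96.7, 103, 106 and 103 CPM in light minus ATR and 47.3, 39.6, 54.4 and 56.8 CPM in light plus ATR, a 2.03-fold lower response with no overlap (-1.02 ± 0.11, adjusted p = 1.99e-05). Fructose bisphosphatase, from fbp-1, and phosphofructokinase, from pfk-1.1, which catalyse opposite steps, were both lower, at -0.29 ± 0.06 (adjusted p = 0.00286) and -0.36 ± 0.06 (adjusted p = 5.33e-04). The glyceraldehyde phosphate dehydrogenase gene gpd-2, which overlaps mai-1, fell by 0.54 ± 0.07 (adjusted p = 4.54e-05).

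In the citric acid and glyoxylate cycles 6 of 28 genes were called lower and 0 higher (21.4% called, median -0.12). These included the isocitrate dehydrogenase subunit genes idhg-2 (-0.71 ± 0.13, adjusted p = 0.00153) and idhb-1 (-0.27) and the malate dehydrogenase gene mdh-2 (-0.36 ± 0.06, adjusted p = 3.71e-04). Of 45 nuclear genes of the respiratory chain and ATP synthase, 4 were called lower (8.89%, median -0.13), led by the complex I subunit gene gas-1 (-0.33 ± 0.06, adjusted p = 0.00159). That count is unstable, with 1 to 7 calls when 1 library was left out (1 without light minus ATR replicate 2 or light plus ATR replicate 2, and 7 without light plus ATR replicate 4), 9 in DESeq2 and 1 with ERCC counts. Under ERCC counts 5 glycolytic and 2 citric acid cycle genes were called lower.

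The stress responses had few calls, in 1 or both directions. Of 28 genes of the endoplasmic reticulum unfolded protein response, 5 were called lower and 0 higher (17.9% called, median -0.14). The BiP chaperone gene hsp-4 measured 351, 343, 336 and 352 CPM in light plus ATR against 413 to 465 CPM in the controls, an interaction of -0.30 ± 0.06 (adjusted p = 0.00235). The translocon-associated genes trap-2, trap-3 and trap-4 were lower (-0.33, -0.25 and -0.27). With ERCC counts 0 of these 5 calls held, and DESeq2 gave 8 lower calls in the list. In the cytosolic heat shock response, 31 genes were tested, of which 2 were called higher and 1 lower (9.68% called, against 5.23% of all genes). Most values of this list were negative all the same, 22 of the 31, with a median of -0.20. The small heat shock protein gene hsp-12.3 was higher (1.24 ± 0.27, adjusted p = 0.00601), and hsp-110 was lower.

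Among 17 genes of the mitochondrial unfolded protein response, 2 were called lower and 0 higher (11.8% called, against 5.23% of all genes). They were the chaperonin gene hsp-60 (-0.46 ± 0.09, adjusted p = 0.00155) and gpd-2, and the mitochondrial chaperone gene hsp-6 stood at -0.13 ± 0.07 (adjusted p = 0.403). Antioxidant genes were split 3 higher and 3 lower among 33 tested (18.2% called). The catalase genes ctl-1 and ctl-2 (0.50 and 0.33) and the glutathione peroxidase gene gpx-3 (0.47) were higher, and the glutathione transferase gene gst-10 (-0.76 ± 0.11, adjusted p = 5.13e-05) and the mitochondrial superoxide dismutase gene sod-3 (-0.76 ± 0.17, adjusted p = 0.00928) were lower. None of the 3 rises passed with ERCC counts, and ctl-2 overlaps Y54G11A.7. The selective autophagy receptor gene sqst-1 was higher by 0.39 ± 0.08 (adjusted p = 0.00285), without a call under ERCC counts. The ferritin gene ftn-1, which stores iron, rose by 1.36 ± 0.29 (adjusted p = 0.00549).

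The pals genes, which are known from the response to intracellular pathogens and proteotoxic stress, fell where they were called. Of 28 tested with their associated genes, 7 were called lower and 0 higher (25.0% called, median -0.14). The eol-1 transcript, induced in the same response, measured 27.7, 31.8, 33.3 and 41.5 CPM in dark minus ATR and 35.2, 31.8, 40.0 and 36.3 CPM in dark plus ATR. It measured 31.2, 33.0, 26.6 and 30.9 CPM in light minus ATR and 10.7, 10.7, 8.20 and 9.61 CPM in light plus ATR, below every control, and the interaction was -1.72 ± 0.16 (adjusted p = 2.74e-06). Lower calls were also made for pals-38 (-1.36 ± 0.18, adjusted p = 2.75e-05), pals-39 (-1.24) and pals-33 (-0.99). The 7 lower calls became 6 with library totals and 7 with ERCC counts.

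Among extracellular matrix genes, those of the basement membrane had lower calls, while cuticle collagens were called at close to the share of all genes. Of 22 basement membrane genes tested, 4 were called lower and 0 higher (18.2% called, median -0.11). They were the nidogen gene nid-1 (-0.58 ± 0.07, adjusted p = 2.95e-06), the spondin gene spon-1 (-0.55 ± 0.10, adjusted p = 0.00105), the hemicentin gene him-4 (-0.42) and the laminin gene lam-1 (-0.38), and library totals and ERCC counts kept the count at 4. Of 134 cuticle collagens tested, 8 were called lower and 1 higher (6.72% called, near the 5.23% of all genes), although the median was 0.25 and 87 of the values were positive. The higher one was col-95 (0.76 ± 0.07, adjusted p = 2.73e-07), and col-160 (-0.51) and col-8 (-0.50) were among the lower ones. The lower count ran from 5 without dark plus ATR replicate 3 to 15 without light plus ATR replicate 4.

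**Figure D5:**
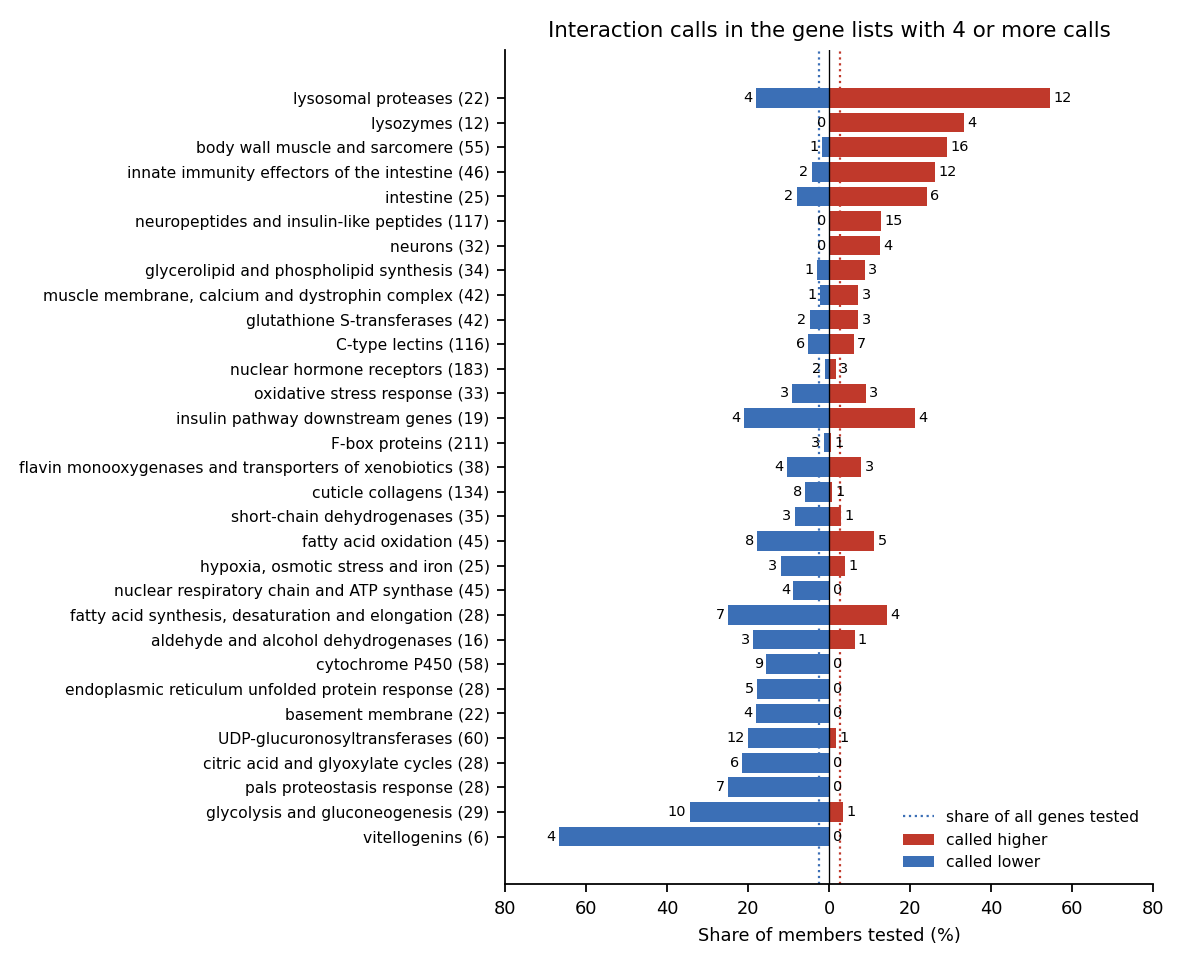
Share of the tested members of each list (horizontal axis, percent) with a called interaction, higher to the right in red and lower to the left in blue, for the 31 lists with 4 or more calls. Numbers at the bars are gene counts, numbers in brackets are members tested, and dotted lines mark the shares of all genes tested (2.58% and 2.65%). The vitellogenins reach furthest to the left and the lysosomal proteases furthest to the right.

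Further leading genes belong to none of these groups. The astacin metalloprotease gene nas-3 measured 0.881, 0.582, 0.501 and 0.266 CPM in light plus ATR and 1.63 to 4.80 CPM in the controls, an interaction of -2.77 ± 0.47 (adjusted p = 0.00156), and the nuclear hormone receptor gene nhr-74 fell by 2.50 ± 0.40 (adjusted p = 4.04e-04). Genes known by their sequence names alone made up 309 of the 787 (39.3%, against 47.6% of all genes tested). Among the protein-coding ones with a mean log2 CPM of at least 1, those that fell most were F53F1.4 (-2.12 ± 0.24), F58G6.9 (-1.91 ± 0.18), B0507.8 (-1.90 ± 0.13), B0205.13 (-1.86), C09B8.4 (-1.86), C35A5.3 (-1.82, overlapping C35A5.4), F42C5.3 (-1.61), Y2H9A.6 (-1.60), D1086.3 (-1.58 ± 0.10) and F13G3.12 (-1.56, overlapping F13G3.3 and srd-53). Their adjusted p-values ran from 1.48e-09 for D1086.3 to 0.00502 for B0205.13. Under the same limits, those that rose most were Y39B6A.1 (1.58 ± 0.28), T11B7.2 (1.45), C13A10.2 (1.38), B0024.4 (1.25) and F53A9.8 (1.24), with adjusted p-values between 3.94e-06 and 0.00991. The saposin-like gene spp-23 rose by 1.52 ± 0.17 (adjusted p = 3.30e-05).

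Some called genes were neighbours, and only part of the runs found is described. How many such runs gene order alone would give was not tested. On WBcel235, 5 genes on chromosome V (8739436 to 8762961) that are neighbours among the tested protein-coding genes were all lower. These were ZC196.2, B0507.6, B0507.7, ddn-1 and B0507.8, with interactions of -1.90 to -0.94. DESeq2 did not call B0507.7. In this run, B0507.8 measured 9.11, 6.98, 5.74 and 7.33 CPM in light plus ATR against 25.1 to 33.7 CPM in the controls. Nearby on the same chromosome (8267511 to 8274044), asp-6, asp-12 and asp-5 were all higher. A run of 4 saposin-like genes on chromosome X (7314969 to 7320354), spp-3, spp-2, spp-4 and spp-5, was higher by 0.22 to 1.20. The call of spp-5 was lost in 10 of the 16 fits with 1 library left out, and that of spp-3 without dark minus ATR replicate 2 or dark plus ATR replicate 1. The run of F22B8.7, str-7, the cystathionine gamma-lyase gene cth-1 and argk-1 on chromosome V (16094584 to 16105952) was higher too, although str-7 (1.49 ± 0.43, adjusted p = 0.0473) lost its call in 11 such fits and in DESeq2. ERCC scaling ended the calls of spp-3, spp-5, F22B8.7 and str-7. Over the nuclear chromosomes, the share called lower ran from 1.52% on I to 4.27% on V and the share called higher from 1.76% on III to 3.59% on X, and 0 of the 14 tested genes of the mitochondrial genome were called.

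In 23 called genes another condition than light plus ATR was the odd one out. Dark plus ATR was odd in 9, light minus ATR in 10 and dark minus ATR in 4. The uncharacterised gene B0361.9 measured 19.5, 19.6, 20.0 and 16.2 CPM in dark minus ATR and 22.7, 22.1, 24.9 and 27.9 CPM in dark plus ATR. Under light it measured 22.4, 20.1, 21.3 and 21.7 CPM without ATR and 17.1, 18.6, 19.1 and 17.2 CPM with it, so that ATR went with more transcript in the dark (0.38 ± 0.08, adjusted p = 0.0956, not passed) and with less under light (-0.25 ± 0.08, adjusted p = 0.0334). Its interaction was -0.63 ± 0.11 (adjusted p = 7.74e-04). W01A11.1 (-0.23), C33A12.19 (-0.75) and the kinesin gene klp-3 (-0.39) had this order of values too. Light minus ATR was odd in B0285.3 (0.40 ± 0.10, adjusted p = 0.0122), Y23H5A.2 (0.34), F42A8.1 (-0.31), arrd-17 (0.41) and ncl-1, and dark minus ATR in kel-20 (0.21) and B0035.18 (0.43). Light plus ATR libraries overlapped the controls in each of these named genes, and leaving out 1 library cost arrd-17, kel-20, B0035.18 and klp-3 their calls in 8, 7, 10 and 2 of the 16 fits, the last being those without dark plus ATR replicate 1 and light minus ATR replicate 1. ERCC scaling ended the calls of W01A11.1, klp-3, B0285.3, Y23H5A.2, arrd-17, kel-20 and B0035.18, library totals those of W01A11.1 and klp-3, and testing without a filter those of kel-20 and B0035.18.

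Several large lists gave 0 calls in edgeR. Over all 15044 genes tested, 2494 had an unadjusted p under 0.05 for the interaction, which is the share to set beside the unadjusted counts that follow. Of 62 germline and oocyte genes, 7 had an unadjusted p under 0.05, DESeq2 called 1 and limma 0, and the median was -0.06 (0.001 with library totals). Their summed level was 31657 to 34250 CPM in light plus ATR and 34879 to 38117 CPM in the controls, below all of them. Of 56 sperm genes, 1 had an unadjusted p under 0.05 and 0 were called by DESeq2 or limma, with a summed level of 1678 to 2636 CPM in light plus ATR and 1013 to 1902 CPM in the controls, which overlapped. Early embryo genes had 2 of 19 at that unadjusted level and 0 calls in DESeq2 or limma, with sums of 475 to 555 CPM against 523 to 605 CPM. Whether these sums bear on the results above was not tested. Hypodermal markers had 2 of 27 at the unadjusted level, 1 call in DESeq2 and 0 in limma.

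Ribosomal proteins and proteasome subunits were likewise without edgeR calls. Of 82 cytosolic ribosomal protein genes, 0 had an unadjusted p under 0.05 and 0 were called by DESeq2 or limma (median -0.06). Mitochondrial ribosomal protein genes had 6 of 71 at the unadjusted level and 0 calls in either tool (median -0.06). Of 33 proteasome subunit genes, 13 had an unadjusted p under 0.05, DESeq2 called 2 and limma 0, and 32 of the 33 interactions were negative (median -0.15). Of 46 translation factors 2 were called lower and 0 higher (4.35% called, median -0.10), clu-1 (-0.33 ± 0.08, adjusted p = 0.0163, lost without light minus ATR replicate 2) and erfa-1 (-0.22, adjusted p = 0.0481, lost in 11 of the 16 fits with 1 library left out), and of 33 aminoacyl-tRNA synthetases only iars-2 was (3.03% called, -0.23 ± 0.05, adjusted p = 0.0126). With ERCC counts these 3 calls were lost. For the proteasome subunit gene rpn-3 the value was -0.21 ± 0.07 (adjusted p = 0.0822, or 0.0299 without dark minus ATR replicate 2). The 12 genes encoded in the mitochondrial genome had a median of -0.55 with 3 at the unadjusted level, 2 calls in DESeq2 and 0 in limma, and their sums overlapped between light plus ATR (2162 to 3837 CPM) and the controls (2314 to 3967 CPM).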

How the data were processed

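RNA was measured by poly(A)-selected, strand-specific sequencing of whole worms with ERCC spike-ins, in 4 independent replicates of each of 4 conditions. The authors processed the reads with an nf-core pipeline against WBcel235 and deposited estimated counts per gene from salmon, for 46904 genes and 92 ERCC sequences. The combined table is named for TPM but holds the same estimated counts, of which 3.60% were not whole and were rounded. The submitters' processing notes name R 4.0.3 and DESeq2 1.30.1 for their own tests. No deposited column was left out.

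Genes passing filterByExpr (15044) were tested in edgeR 4.0.16 (R 4.3.3), with TMM scaling, 1 coefficient per condition and the robust quasi-likelihood F test. Adjusted p-values are Benjamini-Hochberg values over all genes tested, called under 0.05, and the standard error is the absolute log2 value over the square root of F. CPM is the count over the TMM-scaled library size, times 1e6. Overlapping genes are given from Ensembl 115, which held 46817 of the genes. On simulated counts for the interaction, over 15044 genes, edgeR recovered 61 of 100 genes changed by log2 1 and 47 of 100 changed by 0.5, and called 8 of 14844 unchanged ones. Only these genes were changed, as many up as down and in light plus ATR alone. The simulation therefore cannot measure errors that come from the scaling. Alternatives were DESeq2 1.42.0, limma 3.58.1 (limma-trend), library totals, ERCC scaling, TMM without germline, embryo and sperm genes, other filters, the replicate block and leaving out each library.

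Named genes are the 15 largest called interactions each way with a mean log2 CPM of at least 1, up to 4 called members with the smallest p of each list described (or 1 member where 0 were called), up to 5 by p for each odd condition, and the myosin network. Named after their values were seen were vit-2, vit-6, asp-2, asp-5, asp-6, asp-8, asp-13, cpz-1, cpr-6, fat-5, fat-6, elo-6, cyp-35A3, cyp-14A4, lbp-8, pgp-1, Y25C1A.6, cex-1, atn-1, elt-2, hsp-6, sod-3, the muscle genes said so in the text and members of the neighbouring runs. The members and the 52 lists were chosen with earlier results of these data known.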

Additional observations from a re-analysis of the deposited data

Results flagged for a closer look

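The retinal effect differed between light and dark in 787 genes by the test of the interaction itself, and these genes are the subject of the report.

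Single libraries stood apart from the 3 others of their group in 16 of 140 groups of values examined (11.4%), where chance alone flags about 1 in 20 groups. In dark minus ATR, replicate 4 had 503 CPM of cpr-4 (the others 408 to 424), 16.2 CPM of B0361.9 (19.5 to 20.0) and an ERCC share of 0.953% (0.783 to 0.812%). Replicate 1 of that group had 21.3 CPM of flp-18 (24.2 to 24.6). In dark plus ATR, replicate 3 had 2.03 CPM of clec-70 (1.32 to 1.38) and 133 CPM of myo-3 (118 to 119.9).

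In light minus ATR, replicate 1 had 2407 CPM of vit-3 (2764 to 2823), 2666 CPM of vit-4 (3007 to 3061) and 6.49 CPM of ugt-18 (2.19 to 2.92), and replicate 2 had 22.7 CPM of acdh-2 (20.9 to 21.1). In light plus ATR, replicate 1 had 302 CPM of asp-12 (364 to 373), 39.97 CPM of ech-9 (53.1 to 55.0) and 0.306 CPM of lbp-8 (0.266 to 0.270). Replicate 2 had 1088 CPM of cpr-4 (954 to 972) and 21266999 gene counts (24983943 to 25416073), and replicate 3 had 2.00 CPM of acdh-2 (0.574 to 0.721). None of these libraries decided the call of its gene when it was left out, and lbp-8, which was not called, stayed so without light plus ATR replicate 1.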

How the results depend on the processing

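Of the 787 genes called, 739 were also called by DESeq2, 773 by limma, 672 with library totals, 406 with ERCC scaling, 784 with TMM without germline, embryo and sperm genes, 700 without a filter and 734 with a strict one, and 0 changed sign in any of these fits. Leaving out 1 library kept 632 to 708 calls, and 550 were called in each of the 16 such fits. The interaction then had 305 to 398 higher and 320 to 440 lower calls. With library totals it had 589 higher and 284 lower calls, with ERCC scaling 124 and 296, so small rises depend on the scaling. Under library totals ATR raised 2057 and lowered 598 genes under light, and ERCC scaling gave 399 lowered. Light with ATR lowered 715 and 635 genes in these fits. The mean light effect had 551 and 278 lower calls, and the mean retinal effect had 1427 and 1580 higher and 377 and 157 lower calls. ATR in the dark raised 12 genes in DESeq2, 9 with ERCC scaling, 2 with the strict filter and 3 with the replicate block, and lowered 11 in DESeq2. Light without ATR raised 117 genes and lowered 63 in DESeq2, and raised 2 in limma, 2 with library totals, 3 with ERCC scaling and 4 without a filter. Without 1 library, counts ran from 0 to 9 for light without ATR (higher), from 2 to 6 (higher) and 3 to 6 (lower) for ATR in the dark, from 733 to 1365 for ATR under light (lower) and from 532 to 1015 for the mean retinal effect (lower). The causes were not tested.

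Signs reversed for uncalled genes of the myosin network, namely unc-45 (0.0063) and ufd-1 (0.028) with library totals, and chn-1 (-0.094) and nhl-3 (-0.065) with ERCC scaling. Without 1 library, ufd-1 ran from -0.057 to 0.0028 and chn-1 from -0.015 to 0.031.

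The deviations of libraries with the same replicate number correlated at -0.18 to 0.19, and those of libraries with different numbers at -0.23 to 0.19. Still, 9 of 16 libraries correlated best with their own number, so whether the numbers pair the libraries is not settled. With the replicate block 500 genes were called higher and 562 lower, including 782 of the 787. Of the uncalled genes of the myosin network, hsp-1, hsp-90 and lin-41 were then called lower (adjusted p of 0.0205, 0.0436 and 0.0299).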
